A study of Caenorhabditis elegans with 165 samples.

Results

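The genes described here are the 89 gene identifiers of 8 sequenced clones near the right end of chromosome V of Caenorhabditis elegans, out of 20389 identifiers counted in each library. All genes of a clone were taken by name, but the clones were chosen with earlier results of these data known. The genes come from Y113G7A (14 genes), Y113G7B (20), B0250 (8), Y38H6C (23), W01F3 (3), F38A6 (5), T03D8 (7) and F31D4 (9). Their transcripts were counted in 12 RNA-seq libraries of whole worms whose stage label reads L1-L3, 4 libraries for each of 3 strains. The strain 15eh1 (X-V) carries a fusion of the X chromosome with V, and YPT41 (X-II) a fusion of X with II. N2, the wild-type laboratory strain, has no fusion. The labels give no other allele, treatment or age for any of the 3 strains and do not say which chromosome ends were joined, whether a fusion strain descends from 1 isolate, or whether the 4 libraries of a strain came from separate cultures. P-values therefore measure the spread between these libraries, which may be technical. In total RNA from whole worms, fewer cells of a type and less RNA per cell cannot be told apart.

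In hermaphrodites, a condensin-based dosage compensation complex binds along both copies of X and turns their transcription down. The series mapped this complex and histone marks by ChIP, and in a fusion strain the end of an autosome becomes a neighbour of X. The comparisons here ask whether transcripts from the right end of V differ between worms in which V is fused to X and worms in which it is not. The stretch is a mixture of unrelated genes, as is usual for the arms of worm autosomes. It holds the pharynx regulator pha-4, the hypoxia regulator hif-1, the molting gene mlt-11 and the ribosomal protein gene rpl-8, next to F-box and chemoreceptor genes of large families that are typical of autosome arms.

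All 89 identifiers had a place on V in the RefSeq gene table of the WBcel235 assembly, between the gene ranked 6 and the gene ranked 175 counted inward from the right end among 5017 identifiers of V, with 81 other counted genes between them. F31D4 lies nearest the end, followed inward by T03D8, F38A6, W01F3, Y38H6C, B0250, Y113G7B and Y113G7A. Of the 89 genes, 57 have a name, 5 are annotated as pseudogenes, and 62 passed the filter on low counts and were tested. For 31 of the 89, another annotated gene overlaps the gene's span, and the strand used in the counting is not given in the sources used here, so reads of such neighbours cannot be told apart.

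Total gene counts ranged from 8237095 to 31234047 per library, and 3 counts correspond to 0.0893 to 0.334 CPM, which are counts scaled to a common library size, in 1 library. Replicate 1 of each strain stood apart. The 6 yolk protein genes vit-1 to vit-6, which are made in adult hermaphrodites, summed to 159382 CPM in X-V replicate 1, 67321 CPM in X-II replicate 1 and 167258 CPM in N2 replicate 1. In the other 9 libraries they summed to between 2.71 and 426 CPM. The 11 oocyte and eggshell genes measured summed to 7139.8 to 16774 CPM in replicate 1 of the strains and to 22.5 to 85.6 CPM in the other 9 libraries, and 30 genes of major sperm proteins summed to 74.7 to 197 CPM against 0.110 to 1.89 CPM. Results are therefore also given for replicates 2 to 4, and with the replicate number kept as a block.

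In X-V, the mean transcript level of nearly every tested right-end gene lay below that in N2. Of the 62 tested genes, 58 had a log2 fold change below 0 against N2, a direction shared by 49% of all 13186 tested genes. Their median was −0.56, a fold of 0.679, with quartiles of −0.86 and −0.33, against a median of 0.01 for all tested genes. Summed over all 89 genes, the transcripts made up 4163, 3921, 4173 and 3604 CPM in X-V replicates 1 to 4, 5159.8, 5794, 5636 and 7732 CPM in X-II and 6227, 5929.8, 5719.9 and 6681 CPM in N2. Every X-V sum thus lay below every N2 sum and every X-II sum, while the X-II and N2 sums overlapped. Much of each sum came from rpl-8 and mlt-11. Without them the sums were 2646, 1817, 1808 and 1645 CPM in X-V and 2650, 2774, 3102 and 4391 CPM in X-II. In N2 they were 4004, 2822, 2923 and 3108 CPM. Every X-V sum was still the lower, but X-V replicate 1 and X-II replicate 1 were nearly equal. No gene of the stretch passed edgeR's quasi-likelihood test with Benjamini-Hochberg adjustment in X-V against N2, where 0% of all tested genes were called in either direction. In edgeR the smallest unadjusted p was 0.00366, for mlt-11, with an adjusted p of 1.00.

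At an unadjusted p under 0.05 in the same edgeR fit, 18 of the 62 tested genes were lower in X-V, against 0.698% of all tested genes, and none was higher. In 11 of the 62, every X-V library lay below every N2 library, against 0.728% of all tested genes. They were mlt-11, mnr-1, grl-14, elp-1, fkb-6, cdkr-3, B0250.4, B0250.5, Y113G7B.11, F31D4.5 and F31D4.8. Within pairs of the same replicate number, 41 of the 62 were lower in X-V in 4 of 4 pairs, against 9.81% of all tested genes. With replicates 2 to 4 alone, 34 of the 62 had no overlap between the strains (6.69% of all tested genes) and 48 were lower in 3 of 3 pairs (15.6% of all tested genes). With the replicate block, edgeR called none of the right-end genes and 0.0228% of all tested genes lower. DESeq2 called mnr-1, with an adjusted p of 0.0390, and 0.0303% of all tested genes lower.

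**Figure D1:**
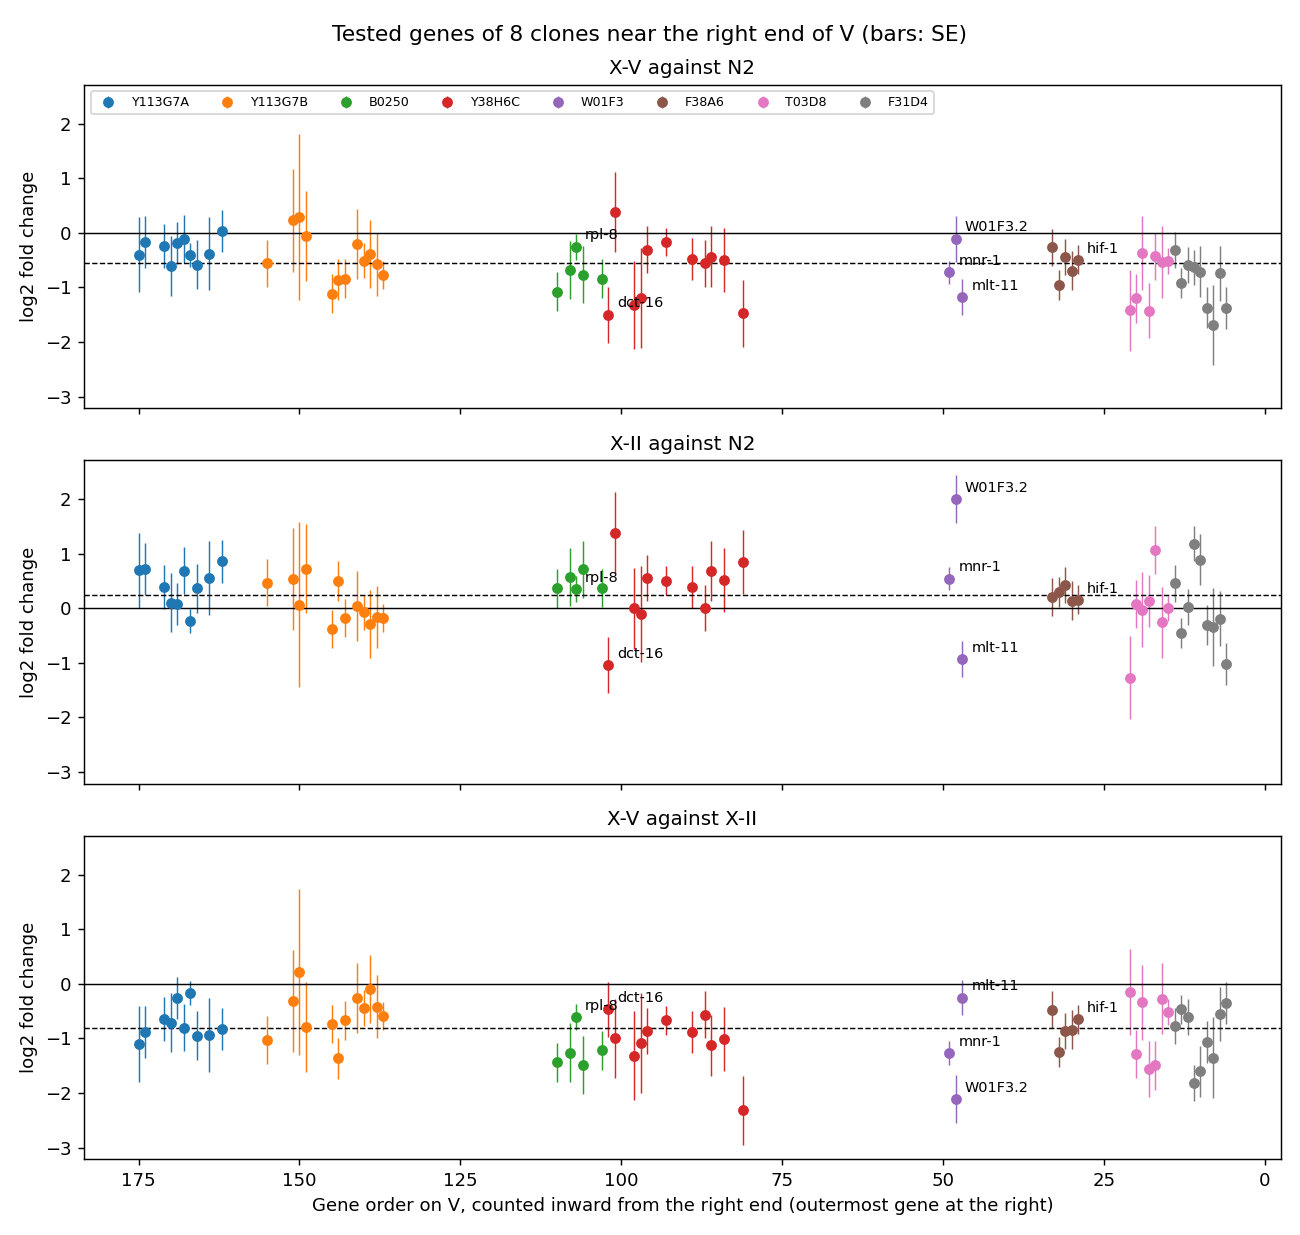
Log2 fold change of each of the 62 tested genes (points, bars are SE, colours are clones) against its order counted inward from the right end of V, with the outermost genes at the right. The dashed lines mark medians of −0.56 for X-V against N2, 0.25 for X-II against N2 and −0.81 for X-V against X-II.

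The difference was present in each replicate pair. The median difference of log2 CPM between X-V and N2 was −0.41 in pair 1, −0.65 in pair 2, −0.57 in pair 3 and −0.79 in pair 4, and 49, 56, 56 and 54 of the 62 genes were lower in X-V in these pairs. The medians of all tested genes were 0.02, 0.00, 0.08 and 0.02 in the same pairs. Low and high counts gave similar medians: −0.56 for the 21 genes with the lowest mean over the 12 libraries (0.518 to 3.95 CPM), −0.52 for the middle 20 genes (4.38 to 18.7 CPM) and −0.58 for the 21 highest (19.3 to 1819 CPM). All 21 of the highest were below 0. The median SE of the log2 fold change was 0.56 for the lowest, 0.40 for the middle and 0.34 for the highest genes, so a single gene at the median difference lay within 2 SE of 0 in each of these classes.

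**Figure D2:**
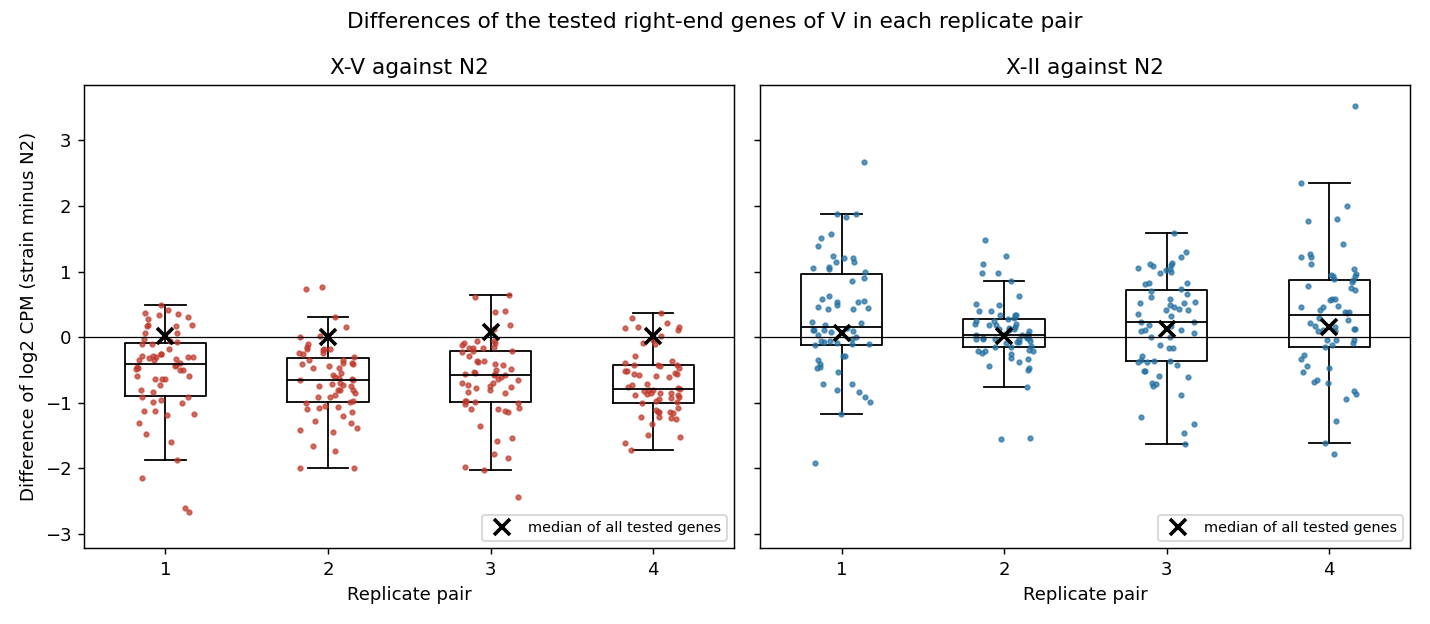
Difference of log2 CPM between a fusion strain and N2 in each replicate pair for the 62 tested genes (points), with boxes for quartiles and crosses for the median of all tested genes. The 4 medians of X-V lie between −0.79 and −0.41, and those of X-II between 0.03 and 0.33.

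Among the regulators of transcription and chromatin, all 6 genes were tested, all 6 had a mean below N2 in X-V (median log2 fold change −0.44), and none passed the edgeR test. The hypoxia-inducible transcription factor gene hif-1 (F38A6.3) was counted at 329, 440.0, 443 and 278 CPM in X-V, at 356, 627, 732 and 627 CPM in X-II and at 513, 585, 586 and 419.6 CPM in N2. All 4 X-V values lay below the N2 value of the same replicate number, but the groups overlapped, since N2 replicate 4 was lower than X-V replicates 2 and 3. The log2 fold change of hif-1 was −0.50 ± 0.27 (SE) in X-V against N2, 0.16 ± 0.27 in X-II against N2 and −0.65 ± 0.27 in X-V against X-II (edgeR adjusted p = 1.00, 0.910 and 0.769). The FoxA transcription factor gene pha-4 (F38A6.1), which specifies the pharynx, was counted at 30.1, 59.2, 59.1 and 43.7 CPM in X-V, at 39.9, 66.9, 52.9 and 107 CPM in X-II and at 39.7, 58.7, 68.9 and 64.1 CPM in N2. The groups overlapped, and replicate 1 had the lowest pha-4 value in every strain. For pha-4 the log2 fold change was −0.27 ± 0.34 in X-V against N2 and 0.21 ± 0.34 in X-II against N2 (edgeR adjusted p = 1.00 and 0.907). Without X-II replicate 4, in which pha-4 was highest, the value for X-II was −0.20.

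The arginine methyltransferase gene prmt-1 averaged 271 ± 228 CPM in X-V, 362 ± 108 CPM in X-II and 405 ± 311 CPM in N2 (SD, n = 4 each), with the highest value in replicate 1 of each strain. In replicates 2 to 4 its values were 167, 186 and 119.8 CPM in X-V, 264, 281 and 414 CPM in X-II and 278, 197 and 278 CPM in N2, so that every X-V value was below every N2 value there. Its log2 fold change was −0.58 in X-V against N2, 0.08 without N2 replicate 1 and −0.69 over replicates 2 to 4. swsn-1, a subunit of the SWI/SNF chromatin remodeller, stood at 132, 47.2, 57.3 and 60.9 CPM in X-V and 135, 93.4, 84.4 and 111 CPM in N2. Its X-II values were 102, 92.1, 89.9 and 120 CPM. The Mediator subunit gene mdt-17 stood at 62.3, 12.6, 11.9 and 12.9 CPM in X-V and 55.0, 23.2, 19.7 and 32.2 CPM in N2. In X-II mdt-17 stood at 52.3, 20.9, 13.8 and 19.7 CPM, also lower than N2 in 4 of 4 pairs. The log2 fold change of mdt-17 was −0.39 in X-V against N2, −0.29 in X-II against N2 and −0.10 in X-V against X-II. In replicate 1 mdt-17 was higher in X-V than in N2 and swsn-1 differed little, while in replicates 2 to 4 every X-V value of both genes was below every N2 value. ttx-1, an Otx-class homeodomain factor of the thermosensory neuron AFD, averaged 14.1 ± 4.89 CPM in X-V, 22.04 ± 9.12 CPM in X-II and 16.7 ± 5.67 CPM in N2 (SD, n = 4 each), and the groups overlapped.

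Genes that act with these regulators were described from lists. Of 16 other genes of the HIF-1 pathway, which comprise partners, regulators and targets of HIF-1, 14 had a log2 fold change below 0 in X-V against N2 (median −0.13), and 6 of 16 in X-II against N2 (median 0.17). With the replicate block, 12 of 16 were below 0 in X-V against N2 (median −0.11). The highest of the 16 was ftn-1, at 1.90 ± 0.59 (SE) in X-V and 1.66 ± 0.59 in X-II against N2 without the block. None of the 16 passed the edgeR test, with or without the replicate block. The log2 fold change of hif-1 in X-V against N2 was lower than that of 13 of these 16 genes. Of 16 pharynx genes, 5 were below 0 in X-V against N2 (median 0.08) and 3 in X-II against N2 (median 0.38), and none passed. Per 1000 CPM of the other genes of their list, hif-1 made up 337, 598, 449 and 377 CPM in X-V and 464, 681, 517 and 438 CPM in N2, and pha-4 30.7, 15.3, 15.9 and 13.6 CPM in X-V and 32.9, 18.7, 20.2 and 19.2 CPM in N2, and X-V and N2 overlapped for both. The medians of all tested genes were 0.01 in X-V against N2 and 0.03 in X-II against N2.

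Genes of translation, folding and secretion numbered 4, all tested, all with a mean below N2 in X-V (median log2 fold change −0.46) and none past the edgeR test. rpl-8 (B0250.1), a protein of the large ribosomal subunit, was counted at 1169, 1563, 1847 and 1298 CPM in X-V, at 2110.5, 2226, 1686 and 2918 CPM in X-II and at 1436, 1763, 1691 and 2119 CPM in N2. These groups overlapped. The log2 fold change of rpl-8 was −0.25 ± 0.24 (SE) in X-V against N2, 0.35 ± 0.24 in X-II against N2 and −0.61 ± 0.24 in X-V against X-II (edgeR adjusted p = 1.00, 0.779 and 0.715). The other genes of the large subunit mostly had values on the other side of 0: of 43 tested rpl genes, 38 had a log2 fold change above 0 in X-V against N2 (median 0.21) and 43 in X-II against N2 (median 0.43), none of them past the edgeR test. Only 1 of the 43 was below rpl-8 in X-V against N2, compared with 10 of 43 in X-II against N2.

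Per 1000 CPM of the other rpl genes, rpl-8 made up 25.6, 20.1, 22.2 and 19.7 CPM in X-V replicates 1 to 4, 35.3, 30.9, 26.0 and 25.5 CPM in X-II and 32.8, 28.5, 31.01 and 29.3 CPM in N2. On this scale every X-V library lay below every N2 library, and X-II overlapped both other strains. The rpl-8 span overlaps that of dhcr-7 in the gene table.

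**Figure D3:**
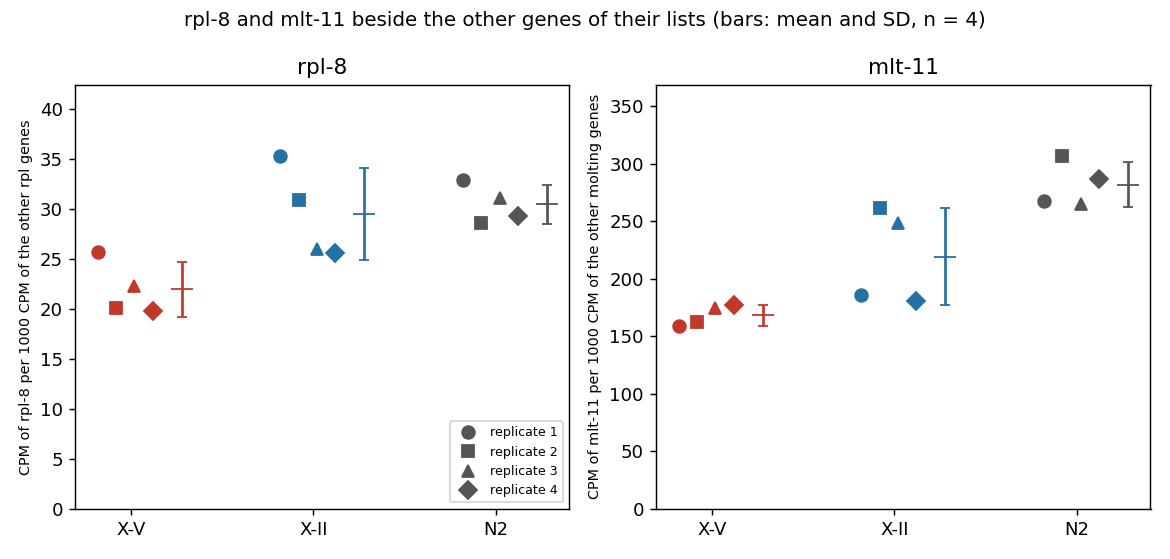
CPM of rpl-8 per 1000 CPM of the other 43 tested rpl genes, and of mlt-11 per 1000 CPM of the other 25 tested molting genes, in each library (symbols are replicates, bars are mean and SD). The X-V values are 19.7 to 25.6 for rpl-8 and 159 to 177 for mlt-11, below all N2 values in both plots.

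The mitochondrial ribosomal protein gene mrps-12 averaged 17.9 ± 1.76 CPM in X-V, 25.6 ± 4.76 CPM in X-II and 25.6 ± 4.45 CPM in N2 (SD, n = 4 each), and was lower in X-V than in N2 in 4 of 4 pairs. The peptidyl-prolyl isomerase gene fkb-6 stood at 143, 121, 155 and 75.0 CPM in X-V, 168, 154, 115 and 320.0 CPM in X-II and 183, 213, 174 and 178 CPM in N2, and every X-V value was below every N2 value. sec-23, a coat protein of vesicles that leave the endoplasmic reticulum, stood at 219, 145, 147 and 151 CPM in X-V and 234, 196, 191 and 255 CPM in N2. In X-II sec-23 stood at 184, 203, 149 and 211 CPM, which overlapped both other strains. The log2 fold change of sec-23 was −0.41 in X-V against N2, −0.23 in X-II against N2 and −0.18 in X-V against X-II. As for swsn-1 and mdt-17, replicate 1 was the highest X-V library for sec-23, and X-V and N2 did not overlap in replicates 2 to 4. The sec-23 span overlaps those of ncx-1 and nlp-69.

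The 3 genes of replication and RNA turnover had a median log2 fold change of −0.21 in X-V against N2 (−0.47 over replicates 2 to 4), and none passed the edgeR test. The DNA replication gene sld-5, of the GINS complex, averaged 12.98 ± 11.4 CPM in X-V and 15.02 ± 12.7 CPM in N2, the exosome subunit gene exos-7 12.6 ± 4.98 CPM in X-V and 15.8 ± 4.29 CPM in N2, and the scavenger decapping enzyme gene dcs-1 16.9 ± 10.7 CPM in X-V and 19.1 ± 4.54 CPM in N2 (SD, n = 4 each). All 3 were highest in replicate 1 of every strain, and the log2 fold change of sld-5 turned to 0.53 in X-V against N2 without N2 replicate 1 and was −0.28 over replicates 2 to 4. Over replicates 2 to 4 every X-V value of dcs-1 was below every N2 value, with a log2 fold change of −0.58.

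The 3 genes of the cuticle and epidermis had a median of −1.18 in X-V against N2. In mlt-11, mnr-1 and grl-14 every X-V library was below every N2 library, as in 0.728% of all tested genes. The 3 were put together with these values known, so their median and separation describe these genes and not the role, and dct-16, which stood with the cuticle genes in an earlier grouping, overlapped N2. The molting gene mlt-11 (W01F3.3), which encodes a protease inhibitor needed to shed the cuticle, was counted at 348, 541, 519 and 661 CPM in X-V, at 399, 794, 848 and 423 CPM in X-II and at 788, 1345, 1106 and 1454 CPM in N2. Every X-V value lay below every N2 value, and each X-II value was also below the N2 value of its pair, although X-II replicates 2 and 3 exceeded N2 replicate 1. The log2 fold change of mlt-11 was −1.18 ± 0.33 (SE) in X-V against N2, −0.93 ± 0.33 in X-II against N2 and −0.25 ± 0.32 in X-V against X-II (edgeR adjusted p = 1.00, 0.370 and 0.999). With the replicate block the adjusted p for X-II against N2 was 0.0512.

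Other molting genes, all but 1 of them on other chromosomes, mostly had means below N2 in both fusion strains. Of 25 tested molting genes, 23 were below 0 in X-V against N2 (median −0.35) and 22 in X-II against N2 (median −0.41). None passed the edgeR test in either comparison. With the replicate block, mlt-10, fbn-1 and pan-1 fell in X-II against N2 (edgeR adjusted p = 0.0122, 0.0117 and 0.0339), and none was called in X-V against N2. The share of all tested genes called lower in X-II with the block is not given here. Over replicates 2 to 4 without the block, edgeR called 1 of the 25 lower in X-II against N2. Of the 25, 2 had a lower log2 fold change than mlt-11 in X-V against N2, and 4 in X-II against N2. Per 1000 CPM of these 25 genes, mlt-11 made up 159, 162, 174 and 177 CPM in X-V, 186, 261, 249 and 181 CPM in X-II and 267, 307, 265 and 287 CPM in N2. The 3 strains did not overlap on this scale. The molting list summed to 2187 to 3727 CPM in X-V, 2146 to 3407 CPM in X-II and 2944 to 5066 CPM in N2, and the part of molting stage in the mlt-11 values was not tested.

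mnr-1 (W01F3.1), the menorin gene, acts in the epidermis to shape the dendrites of sensory neurons, and it was the only right-end gene called by edgeR over all 12 libraries without the replicate block. mnr-1 was counted at 11.6, 11.05, 11.4 and 11.8 CPM in X-V, at 33.1, 24.6, 24.7 and 28.03 CPM in X-II and at 15.9, 20.8, 17.9 and 21.0 CPM in N2. The 3 strains did not overlap: every X-V value was below every N2 value, and every X-II value was above every N2 value. In X-V against X-II, mnr-1 fell by 1.27 ± 0.22 (SE) on the log2 scale (edgeR adjusted p = 0.0466; 0.00645 with the replicate block). In X-V against N2 the value was −0.72 ± 0.21 and in X-II against N2 0.54 ± 0.21, with edgeR adjusted p = 1.00 and 0.466. grl-14 (T03D8.4), a hedgehog-related gene, was low throughout, at 1.15, 0.493, 0.217 and 0.676 CPM in X-V, 1.89, 1.16, 2.56 and 1.75 CPM in X-II and 2.64, 1.19, 1.24 and 1.64 CPM in N2. All X-V values of grl-14 were below all values of the other 2 strains.

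**Figure D4:**
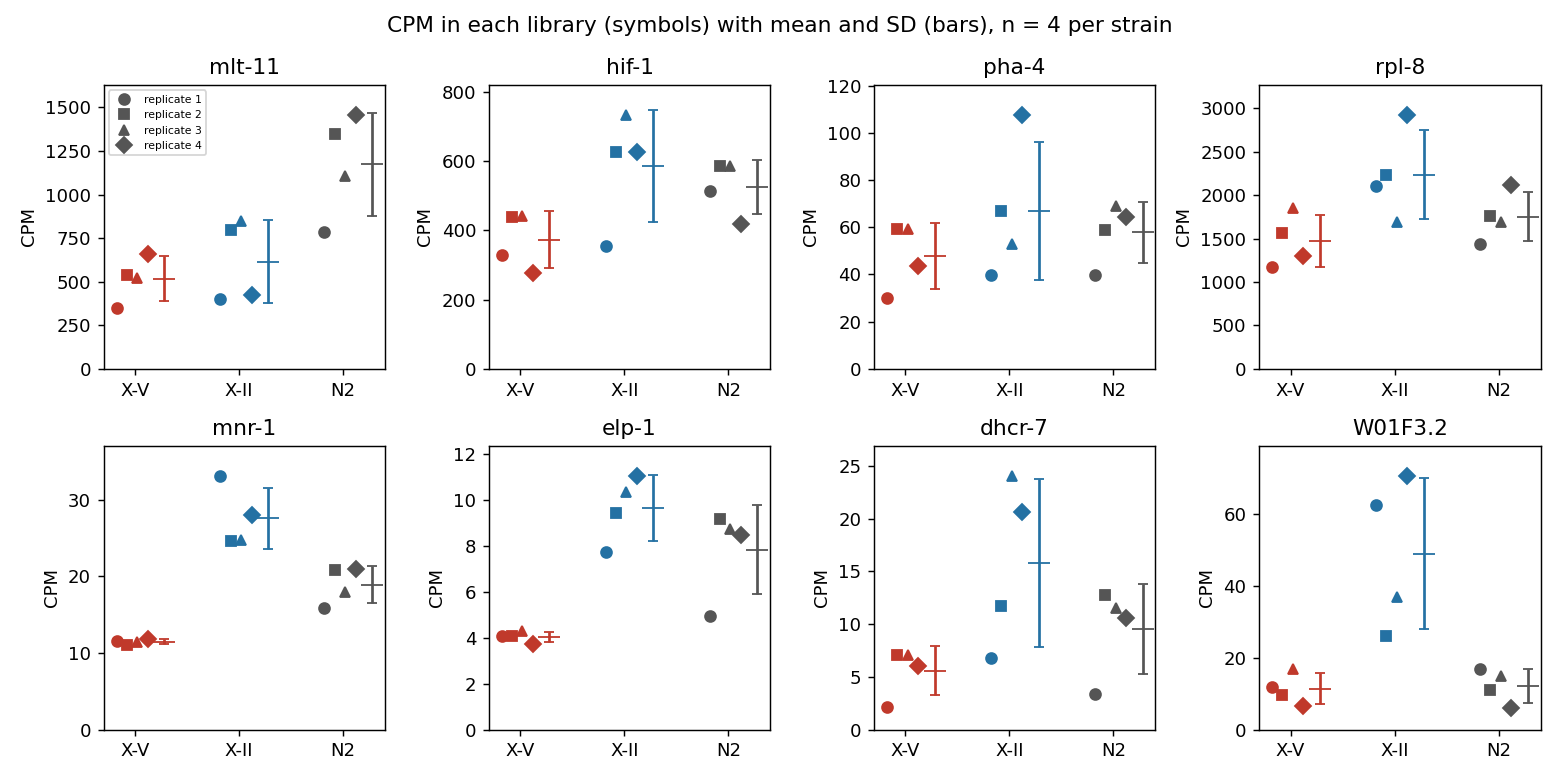
CPM of 8 right-end genes in each library, with mean and SD (bars) for n = 4 libraries per strain. mlt-11, mnr-1 and elp-1 have every X-V library below every N2 library, and W01F3.2 has every X-II library above every other library.

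Of 10 genes of neurons, channels and signalling, 9 were tested, all 9 were below 0 in X-V against N2 (median −0.53), and 7 of 9 were lower in 4 of 4 pairs. None passed the edgeR test in X-V against N2. elp-1 (F38A6.2), a microtubule-binding protein of the EMAP family, was counted at 4.07, 4.08, 4.29 and 3.74 CPM in X-V, at 7.74, 9.44, 10.4 and 11.05 CPM in X-II and at 4.97, 9.16, 8.76 and 8.49 CPM in N2. Every X-V value lay below every value of the other 2 strains, which overlapped. The log2 fold change of elp-1 was −0.96 ± 0.27 (SE) in X-V against N2 and −1.25 ± 0.27 in X-V against X-II (edgeR adjusted p = 1.00 and 0.158), and for X-V against X-II the replicate block gave an adjusted p of 0.0210.

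The sodium-calcium exchanger gene ncx-1 (Y113G7A.4) was counted at 30.3, 82.6, 90.1 and 90.1 CPM in X-V, at 88.3, 133, 166 and 179 CPM in X-II and at 37.4, 124, 141 and 137 CPM in N2. Replicate 1 was the lowest library of each strain, and in replicates 2 to 4 every X-V value lay below every N2 value. In X-V against X-II, the log2 fold change of ncx-1 was −0.95 ± 0.45 (edgeR adjusted p = 0.902), and with the replicate block it fell by 1.04 ± 0.21 on the log2 scale (edgeR adjusted p = 0.0297).

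sbt-1, the chaperone of a neuropeptide convertase, was counted at 93.8, 167, 148 and 162 CPM in X-V, 152, 260.4, 451 and 743 CPM in X-II and 141, 263, 219.6 and 146 CPM in N2. X-II replicates 3 and 4 were higher than any other library. num-1, the worm Numb, averaged 42.4 ± 43.6 CPM in X-V, 51.2 ± 21.4 CPM in X-II and 61.2 ± 49.5 CPM in N2, with replicate 1 the highest in each strain, and its log2 fold change of −0.53 in X-V against N2 turned to 0.17 without N2 replicate 1. Over replicates 2 to 4 of both strains it was −0.86, and every X-V value of num-1 was below every N2 value. calf-1, which brings a neuronal calcium channel to synapses, averaged 2.63 ± 1.22 CPM in X-V, 6.35 ± 2.72 CPM in X-II and 4.23 ± 2.13 CPM in N2. The tyramine-gated chloride channel gene lgc-55 averaged 3.45 ± 2.04 CPM in X-V, 7.42 ± 5.06 CPM in X-II and 4.57 ± 2.24 CPM in N2, and the receptor guanylate cyclase gene gcy-22 of a taste neuron 3.68 ± 2.12 CPM in X-V, 4.71 ± 2.35 CPM in X-II and 4.75 ± 2.63 CPM in N2. In calf-1, lgc-55 and gcy-22, replicate 1 was the lowest library of each strain. The neuropeptide-like gene nlp-69 averaged 11.1 ± 1.88 CPM in X-V, 19.4 ± 11.4 CPM in X-II and 12.04 ± 2.45 CPM in N2, and the potassium channel gene twk-35 1.05 ± 0.563 CPM in X-V, 1.56 ± 0.705 CPM in X-II and 1.79 ± 0.359 CPM in N2 (SD, n = 4 each). In each of calf-1, lgc-55, gcy-22, nlp-69 and twk-35, values of X-V and N2 overlapped, although over replicates 2 to 4 every X-V value of calf-1 and twk-35 was below every N2 value. The sulfotransferase gene ssu-1 was not tested, with 32 counts in X-V, 43 in X-II and 41 in N2 over 4 libraries each. Scaled for depth, ssu-1 averaged 0.355 CPM in X-V, 0.733 CPM in X-II and 0.471 CPM in N2.

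The 3 genes of metabolism and transport were below 0 in X-V against N2 (median −0.71) and above 0 in X-II against N2 (median 0.72), and none passed the edgeR test in these comparisons. dhcr-7 (B0250.9), a homologue of a sterol reductase, was counted at 2.19, 7.04, 7.10 and 6.02 CPM in X-V, at 6.75, 11.7, 24.04 and 20.6 CPM in X-II and at 3.35, 12.8, 11.5 and 10.5 CPM in N2. Its replicate 1 value was the lowest in each strain, and in replicates 2 to 4 every X-V value was below every N2 value. ndua-1 (F31D4.9), a subunit of respiratory complex I, was counted at 20.5, 35.5, 36.3 and 40.7 CPM in X-V, at 56.0, 60.0, 114 and 176 CPM in X-II and at 19.6, 71.0, 52.3 and 74.9 CPM in N2. For ndua-1, X-V lay below X-II in all libraries, while X-V replicate 1 exceeded N2 replicate 1. In X-V against X-II with the replicate block, dhcr-7 fell by 1.50 ± 0.24 and ndua-1 by 1.53 ± 0.27 on the log2 scale (edgeR adjusted p = 0.0139 and 0.0195). Without the block the edgeR adjusted p was 0.612 for dhcr-7 and 0.429 for ndua-1. slc-36.3, of an amino acid transporter family, averaged 1.49 ± 0.848 CPM in X-V, 3.33 ± 1.58 CPM in X-II and 2.04 ± 1.01 CPM in N2 (SD, n = 4 each).

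Of 10 F-box and germline genes, 6 were tested, with a median of −0.11 in X-V against N2: 4 were below 0 and 2 above, none passed the edgeR test, and in none did all X-V and N2 libraries separate. The median was −0.41 over replicates 2 to 4, again with 4 of 6 below 0, and −0.21 with the replicate block. fog-2 (Y113G7B.5), an F-box protein needed for sperm production in hermaphrodites, was counted at 20.8, 1.27, 1.52 and 0.870 CPM in X-V, at 18.7, 1.49, 0.223 and 0.437 CPM in X-II and at 17.3, 0.699, 0.927 and 1.22 CPM in N2. Its paralogue ftr-1 stood at 5.63, 1.34, 1.08 and 1.55 CPM in X-V, 9.09, 1.21, 0.668 and 0.811 CPM in X-II and 4.97, 1.19, 0.670 and 1.37 CPM in N2, and it was the only tested right-end gene higher in X-V than in N2 in 4 of 4 pairs. Both were highest in replicate 1 of every strain, and since they are close paralogues their counts are uncertain. Without X-V replicate 1 the log2 fold change against N2 was −2.01 for fog-2 and −0.60 for ftr-1, and over replicates 2 to 4 it was 0.30 for fog-2 and 0.27 for ftr-1. fbxa-114 also had its highest value in replicate 1 of each strain, at 6.57 CPM in X-V, 9.99 CPM in X-II and 5.28 CPM in N2. fbxa-115 averaged 1.48 ± 0.610 CPM in X-V, 3.06 ± 0.938 CPM in X-II and 2.18 ± 0.831 CPM in N2, the pseudogene fbxa-149 0.931 ± 0.294 CPM in X-V, 1.70 ± 0.629 CPM in X-II and 1.15 ± 0.442 CPM in N2 and fbxa-150 4.12 ± 0.484 CPM in X-V, 6.57 ± 0.849 CPM in X-II and 4.62 ± 0.957 CPM in N2 (SD, n = 4 each). For fbxa-115 and fbxa-150, all X-V values lay below all X-II values.

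The 27 genes that were not tested had few reads. They totalled 160 counts in X-V, 250 in X-II and 272 in N2, at most 116 counts per gene over the 12 libraries, and 1 of them, the chemoreceptor gene srbc-79, had none. These totals are raw counts from libraries of unequal depth and do not compare the strains. All 7 chemoreceptor genes (srh-166, srh-217, srh-233, srbc-34, srbc-78, srbc-79 and the pseudogene srw-65), the sperm gene spe-19, fbxa-113, fbxa-116 and fbxb-59 were among them, as were ssu-1, vmo-1 and abf-4. Differences in these genes were not detectable at this depth. With no filter on low counts, 88 genes were fitted and their median was −0.59 in X-V against N2.

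No role was assigned to 43 genes, of which 28 were tested. Their median was −0.84 in X-V against N2, with 26 of 28 below 0. dct-16 (Y38H6C.1), named for control by the FOXO factor DAF-16, was counted at 422, 177, 102 and 234 CPM in X-V, at 275, 226, 221 and 568 CPM in X-II and at 1045, 269.6, 555 and 775 CPM in N2. All X-V and X-II values were below the N2 value of their pair, and the groups overlapped. Its log2 fold change was −1.50 ± 0.52 in X-V and −1.03 ± 0.51 in X-II against N2 (edgeR adjusted p = 1.00 and 0.621). cdkr-3 averaged 20.6 ± 2.82 CPM in X-V, 30.9 ± 8.24 CPM in X-II and 35.1 ± 7.79 CPM in N2, fre-1 12.7 ± 10.2 CPM in X-V, 20.7 ± 9.18 CPM in X-II and 19.3 ± 11.1 CPM in N2 and famh-161 3.87 ± 1.46 CPM in X-V, 7.15 ± 2.73 CPM in X-II and 5.42 ± 1.31 CPM in N2 (SD, n = 4 each). The unnamed genes with the highest means were F31D4.2, T03D8.6, B0250.5, W01F3.2 and Y38H6C.16. F31D4.2 averaged 67.1 ± 23.2 CPM in X-V, 92.9 ± 16.5 CPM in X-II and 127 ± 24.6 CPM in N2, B0250.5 54.2 ± 8.68 CPM in X-V, 126 ± 75.1 CPM in X-II and 96.9 ± 9.42 CPM in N2 and Y38H6C.16 8.74 ± 2.93 CPM in X-V, 12.9 ± 5.37 CPM in X-II and 12.9 ± 5.005 CPM in N2 (SD, n = 4 each). In B0250.5 every X-V value was below every N2 value, and in F31D4.2 this held except for X-V replicate 1 against N2 replicate 4.

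**Figure D5:**
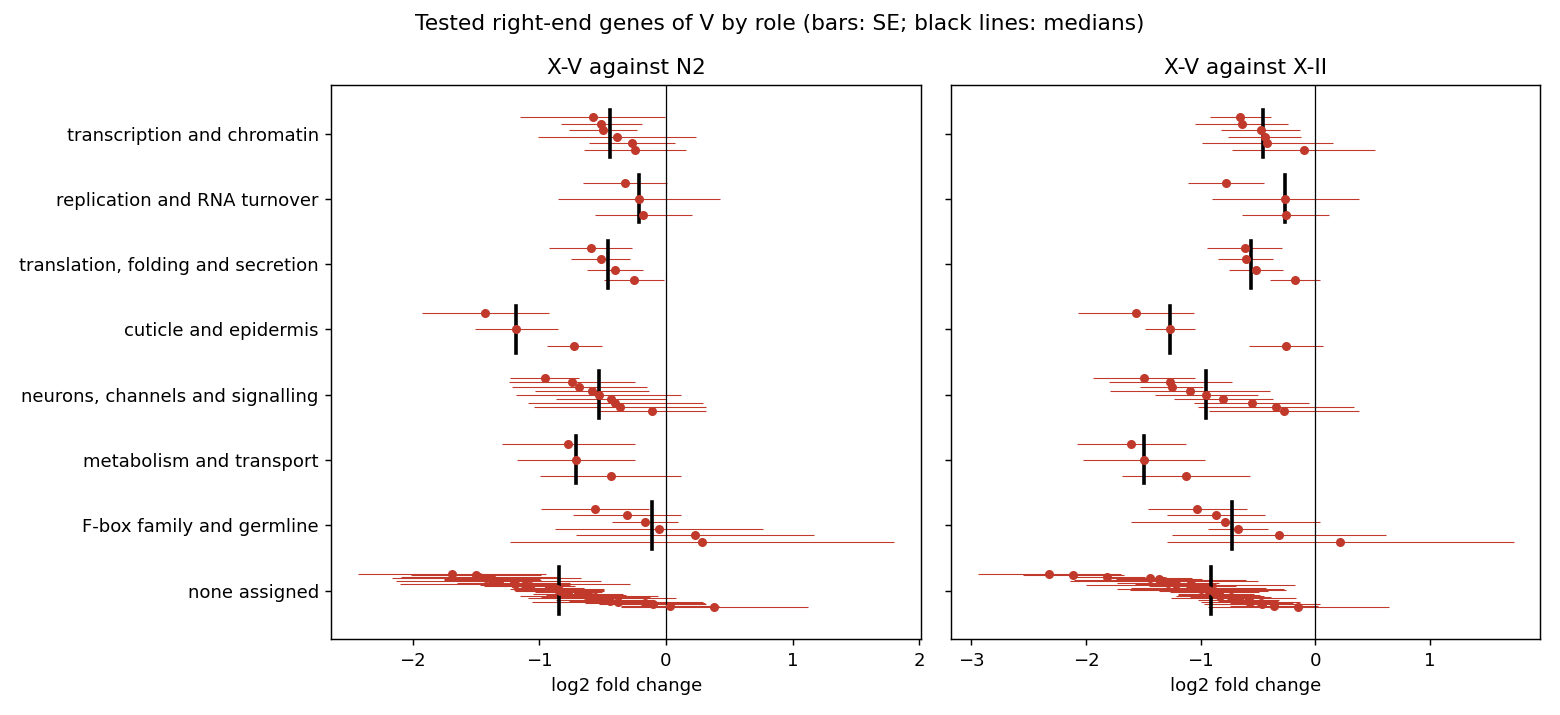
Log2 fold change of each tested gene by role (points, bars are SE), with the median of each role as a black line. In X-V against N2 the medians run from −1.18 for the cuticle and epidermis to −0.11 for the F-box and germline genes. Roles were assigned after the values were known, so these medians describe the genes shown and not the roles.

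In X-II, where X is joined to another autosome, most right-end genes of V had means above N2. Of the 62 tested genes 19 had a log2 fold change below 0 against N2, against 47.7% of all tested genes, and the median was 0.25 (quartiles −0.10 and 0.55), against 0.03 for all tested genes. With edgeR, none was called in either direction, where 0.0607% of all tested genes were called lower and 0.159% higher. At an unadjusted p under 0.05, 2 genes were lower (mlt-11 and F31D4.8, against 2.65% of all tested genes) and 5 were higher (Y113G7A.13, mnr-1, W01F3.2, sbt-1 and clec-264, against 6.17% of all tested genes). Every X-II library was above every N2 library in 3 genes (mnr-1, W01F3.2 and clec-264, against 3.75% of all tested genes) and below in 1 (F31D4.8, against 1.82% of all tested genes), and 12 of 62 genes were higher in 4 of 4 pairs, against 16.2%. The shares called, without overlap or higher in every pair lie near those of all genes. Without X-II replicate 4 the median was 0.08. Over replicates 2 to 4, 25 of the 62 genes were below 0, against 48.5% of all tested genes. Their median was 0.16 there, against 0.02 for all tested genes.

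With the replicate block, W01F3.2 and clec-264 rose in X-II against N2, where 4.1% of all tested genes were called higher. Neither was called over replicates 2 to 4, with or without the block (adjusted p = 0.0824 for W01F3.2 and 0.191 for clec-264 in edgeR without it). Over all 12 libraries DESeq2 called the same 2 genes, where it called 1.33% of all tested genes higher. W01F3.2 was counted at 11.99, 9.78, 16.98 and 6.73 CPM in X-V, at 62.5, 26.2, 36.8 and 70.7 CPM in X-II and at 16.9, 11.1, 14.9 and 6.04 CPM in N2. Every X-II library was above every library of the other 2 strains, and X-V and N2 overlapped. With the block, W01F3.2 rose by 2.06 ± 0.38 (SE) on the log2 scale in X-II against N2 (edgeR adjusted p = 0.0134; 0.104 without it). It lies between mnr-1 and mlt-11 in gene order. clec-264 (F31D4.4), a gene of the C-type lectin family, was counted at 2.81, 3.097, 1.99 and 3.35 CPM in X-V, at 10.8, 7.01, 13.4 and 8.49 CPM in X-II and at 2.94, 5.52, 4.38 and 4.56 CPM in N2. X-II lay above both other strains in all libraries, and with the block clec-264 rose by 1.19 ± 0.31 on the log2 scale against N2 (edgeR adjusted p = 0.0490; 0.193 without it). The clec-264 span overlaps that of fkb-6.

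Set against X-II instead of N2, nearly all right-end genes again had lower means in X-V, and the comparison shares its X-V libraries with that against N2. Of the 62 tested genes 61 were below 0 (51.4% of all tested genes), with a median of −0.81 (a fold of 0.568). Every X-V library was below every X-II library in 19 genes (2.73% of all tested genes), 40 were lower in 4 of 4 pairs (14.1%), and 25 were lower at an unadjusted p under 0.05 (4.08%). The edgeR test called mnr-1 lower, and 0.121% of all tested genes. With the replicate block, 10 genes fell, against 1.33% of all tested genes: mnr-1, W01F3.2, clec-264, elp-1, ncx-1, dhcr-7, ndua-1, T03D8.6, B0250.4 and Y38H6C.23. DESeq2 called 6 lower (mnr-1, W01F3.2, clec-264, elp-1, B0250.4 and Y38H6C.23), against 0.69% of all tested genes. With replicates 2 to 4 alone edgeR called mnr-1, elp-1 and dhcr-7, against 0.323%. With the block over replicates 2 to 4 it called mnr-1 only. Thus 9 of the 10 calls under the block were not made by the block fit without replicate 1. Without the block, leaving out any 1 of the 8 X-V and X-II libraries ended the edgeR call of mnr-1, with adjusted p between 0.107 and 0.283.

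Of the 10, those not yet described were low or unnamed genes. T03D8.6, whose span overlaps gcy-22, was counted at 9.69, 22.9, 26.3 and 30.6 CPM in X-V, at 39.9, 52.2, 80.9 and 45.0 CPM in X-II and at 19.4, 60.2, 55.7 and 70.9 CPM in N2. All X-V values were below all X-II values, and below the N2 value of the same number. The block gave T03D8.6 −1.39 ± 0.26 (SE) in X-V against X-II and −1.19 ± 0.26 in X-V against N2 (edgeR adjusted p = 0.0248 and 0.339). The pseudogene B0250.4 was counted at 1.15, 1.41, 1.99 and 1.68 CPM in X-V, at 2.79, 4.75, 6.68 and 2.87 CPM in X-II and at 2.64, 3.57, 4.07 and 2.95 CPM in N2. Every X-V value was below every value of the other 2 strains. Y38H6C.23 was counted at 0.104, 0.422, 1.04 and 0.322 CPM in X-V, at 1.44, 1.33, 4.01 and 3.18 CPM in X-II and at 1.22, 1.68, 1.91 and 0.715 CPM in N2. The Y38H6C.23 values of X-V were below all X-II values and overlapped N2. Its value in X-V replicate 1 lay under the 0.313 CPM that 3 counts give in that library. In X-V against X-II the block gave −1.39 ± 0.28 for B0250.4 and −2.45 ± 0.49 for Y38H6C.23 (edgeR adjusted p = 0.0315 and 0.0325).

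Along the stretch, the median log2 fold change in X-V against N2 was −0.74 for F31D4, nearest the end (9 tested genes, 9 below 0), −0.53 for T03D8 (7 genes, 7 below 0), −0.50 for F38A6 (5 genes, 5 below 0) and −0.72 for W01F3 (3 genes, 3 below 0). Further inward it was −0.50 for Y38H6C (11 genes, 10 below 0), −0.77 for B0250 (5 genes, 5 below 0), −0.53 for Y113G7B (12 genes, 10 below 0) and −0.31 for Y113G7A (10 genes, 9 below 0). In X-II against N2 the clone medians lay between −0.19 for F31D4 and 0.54 for W01F3, and in X-V against X-II between −1.27 for W01F3 and −0.52 for T03D8 and Y113G7B. Within a clone, single genes spread widely: from −1.50 to 0.38 in Y38H6C and from −1.69 to −0.32 in F31D4 in X-V against N2.

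Lower values were also found outside these 8 clones. The 34 other tested genes between them had a median of −0.43 in X-V against N2, with 26 of 34 below 0, and the 4 tested genes beyond the outermost of the 89 had a median of −0.70, with 4 of 4 below 0. The next 62 tested genes inward had a median of −0.46 and 52 of 62 below 0. The 62 tested genes at the left end of V had a median of −0.01 with 32 of 62 below 0, the 1998 tested genes of X one of 0.04, and the 8349 tested genes of the other autosomes one of 0.01. In X-II against N2, the medians were 0.18 for the other genes between the clones, 0.28 for the next inward and 0.17 for the left end. The 4 genes beyond the outermost of the 89 had a median of −0.21 there, with 3 of 4 below 0. All tested genes of V outside the 8 clones had one of 0.10, those of X 0.16 and those of the other autosomes −0.02. In X-V against X-II, they were −0.46 between the clones, −0.63 next inward and −0.28 at the left end, with 37 of 62 below 0 there. All tested genes of V outside the 8 clones had a median of −0.11 in X-V against X-II, those of X −0.12 and those of the other autosomes 0.03. No test was made between these regions.

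Right-end genes differed in how replicate 1 behaved. The genes were divided by X-II replicate 1 minus the mean of X-II replicates 2 to 4 on the log2 scale, libraries that take no part in X-V against N2. In the 15 genes that were higher in X-II replicate 1 by over 0.5, among them mdt-17, prmt-1, sld-5, num-1 and fog-2, the median difference of X-V and N2 was −0.33 in pair 1 and −0.67 over pairs 2 to 4. In the 19 genes within 0.5, among them swsn-1, sec-23, rpl-8 and mnr-1, the medians were −0.30 and −0.78. In the 28 genes lower in X-II replicate 1 by over 0.5, among them mlt-11, hif-1, pha-4 and ncx-1, they were −0.61 and −0.56. Over all tested genes the medians of the same 3 classes lay between −0.03 and 0.11. Yolk, oocyte and sperm transcripts were high in replicate 1 of every strain, as given above, and their part in these differences was not tested.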

How the data were processed

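Per the labels, the 12 libraries hold total RNA of whole worms labelled L1-L3, 4 for each of the strains X-V, X-II and N2, while the series text says L3 and the attached protocols describe embryo ChIP. The authors deposited whole-number read counts per gene. The tools named for the whole series, per the submitters' processing notes and with no role given, are HTSeq, TopHat2 2.1.1, Bowtie 1.2.0, SAMtools 1.6, CASAVA 1.8, bedtools and MACS 1.4.3. Which of them made the counts, and with which build, annotation and strand, is not given in the sources used here. Rows that name no gene stayed out of library sizes: reads in no gene were 2.48 to 4.25%, ambiguous reads 0.656 to 0.893% and reads with several places 13.2 to 22.7% of the gene counts plus these rows. The other 153 samples, ChIP and input libraries among them, were not analysed here.

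Of 20389 identifiers, 19879 matched the WBcel235 RefSeq gene table, which was used for names, order along V and overlaps only. Counts were scaled by TMM, genes with low counts were removed with filterByExpr, and all 12 libraries were fitted with strain as the only term by edgeR 4.0.16 (R 4.3.3), with quasi-likelihood tests and Benjamini-Hochberg adjustment over 13186 genes at 0.05. CPM are counts scaled to a common library size after TMM. Differences within pairs used log2 CPM with a prior count of 2. Alternatives were DESeq2 1.42.0, a replicate block, replicates 2 to 4, other scaling, no filter, 2 strains only and leaving out each library. The scripts were tested on simulated data.

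Libraries of the same replicate number deviated together: the 12 correlations of their deviations lay between 0.319 and 0.942, above the limit of 0.1, and 8 libraries were best matched by 1 of their own number. The labels do not say what the number stands for, and over replicates 2 to 4 alone only 4 of 9 correlations were above the limit. No 2 libraries of a strain agreed within sampling noise (lowest chi-square per gene 18.1). The biological coefficient of variation was 0.638, and 0.297 with the block. Depth of 8237095 to 31234047 counts puts 3 counts at 0.0893 to 0.334 CPM, a floor that covers counting error only.

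The right-end genes and all lists were chosen with earlier results of these data known. The text names with values pha-4, hif-1, mlt-11 and rpl-8, every tested gene with its own name and a mean of at least 1 CPM, every gene called with or without the block, and the 5 unnamed genes with the highest means, and gives every library for the 4 genes and for every called gene. Roles were assigned to each gene after the values were known and differ from an earlier grouping, in which dct-16 stood with the cuticle genes, elp-1 and cdkr-3 with neurons, and mnr-1 and grl-14 with none.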

Additional observations from a re-analysis of the deposited data

Results flagged for a closer look

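In 30 of 138 sets of 4 libraries, for 46 named right-end genes in 3 strains, the highest or lowest library stood apart from the other libraries of its strain by Dixon's test, which flags about 1 in 20 such sets by chance. Of the 30, 27 were replicate 1, in which yolk, oocyte and sperm transcripts were high in every strain. Their part in these values was not tested.

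Replicate 1 stood above the other libraries of its strain in 20 sets. fog-2 had 20.8 CPM in X-V, 18.7 CPM in X-II and 17.3 CPM in N2 in replicate 1, and ftr-1 had 5.63 CPM in X-V, 9.09 CPM in X-II and 4.97 CPM in N2. sld-5 had 30.0 CPM in X-V, 27.8 CPM in X-II and 33.9 CPM in N2. fbxa-114 had 6.57 CPM in X-V and 9.99 CPM in X-II, prmt-1 611 CPM in X-V and 868 CPM in N2, and num-1 108 CPM in X-V and 135 CPM in N2. In X-V replicate 1 alone, sec-23 had 219 CPM, swsn-1 132 CPM, mdt-17 62.3 CPM, dcs-1 32.7 CPM and fre-1 27.8 CPM.

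Replicate 1 stood below the other libraries for ncx-1, at 30.3 CPM in X-V and 37.4 CPM in N2. In X-V it was also low for ttx-1 (6.88 CPM), gcy-22 (0.521 CPM) and twk-35 (0.208 CPM), in X-II for fbxa-150 (5.31 CPM) and in N2 for elp-1 (4.97 CPM). The other 3 were dct-16 in X-II replicate 4 (568 CPM, high), fbxa-149 in X-V replicate 2 (0.493 CPM, low) and slc-36.3 in X-II replicate 3 (5.68 CPM, high). The twk-35 value in X-V replicate 1 lay under the 0.313 CPM that 3 counts give in that library.

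The difference of mnr-1 against N2 was itself different between the fusion strains: the log2 fold change in X-V minus that in X-II was −1.27, with an edgeR adjusted p of 0.0466, and this value is the comparison of X-V with X-II. In edgeR its adjusted p was 0.0563 with RLE scaling, 0.153 with no filter on low counts, 0.241 with 2 strains only and 0.107 to 0.283 without any 1 of the X-V and X-II libraries, none of them under 0.05.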

How the results depend on the processing

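The median log2 fold change of the right-end genes kept its sign in all 16 settings of each comparison. Over fits that leave out 1 library it lay between −0.722 (without N2 replicate 1) and −0.517 in X-V against N2, between 0.080 (without X-II replicate 4) and 0.340 in X-II against N2, and between −0.827 and −0.590 (without X-II replicate 4) in X-V against X-II. DESeq2 called 1 gene in X-V against N2, 2 in X-II against N2 and 6 in X-V against X-II. The replicate block called 2 in X-II against N2 and 10 in X-V against X-II, and changed no other call of these genes over all 12 libraries. Over replicates 2 to 4, with or without the block, edgeR no longer called the 2 genes of X-II against N2. In X-V against X-II, where 1 gene was called, replicates 2 to 4 gave 3 and their block 1, and RLE scaling, no filter on low counts, 2 strains only and every fit without 1 library gave 0, which is mnr-1 at adjusted p = 0.0563, 0.153, 0.241 and 0.107 to 0.283 in edgeR. The count of genes with every X-V library below every N2 library was 34 over replicates 2 to 4 and 11 to 23 without 1 library (22 without X-V replicate 1, 23 without N2 replicate 1), where fewer libraries make separation easier by construction. Over all tested genes the share was 0.728% with every library and 6.69% over replicates 2 to 4. It is not given for the fits without 1 library.

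Of 1181 alternative values of named genes, 32 changed sign. In X-V against N2, leaving out 1 library gave −0.244 to 0.028 for nlp-69, −0.598 to 1.089 for ftr-1, −2.013 to 2.608 for fog-2, −1.215 to 0.533 for fbxa-114, −1.036 to 0.533 for sld-5, −1.364 to 0.077 for prmt-1, −1.573 to 0.171 for num-1 and −0.399 to 0.095 for W01F3.2, which was 0.035 over replicates 2 to 4 and 0.016 with their block. In X-II against N2 it gave −0.025 to 0.503 for ncx-1, −0.201 to 0.306 for pha-4, −0.032 to 0.235 for hif-1 and −0.288 to 0.170 for T03D8.6. T03D8.6 was also −0.176 over replicates 2 to 4, −0.191 with their block, −0.008 with RLE scaling and with DESeq2, −0.036 with no filter and −0.013 with 2 strains only. The causes were not tested.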

Other observations

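F31D4.8, an unnamed gene of the outermost clone, was chosen after its values were seen, as the only tested right-end gene in which both fusion strains stood without overlap below N2. Over all tested genes, X-V stood so in 0.728% and X-II in 1.82%. The share in which both did is not given here, so this 1 gene cannot be set against it. F31D4.8 was counted at 5.73, 2.60, 2.21 and 2.996 CPM in X-V, 5.40, 6.18, 2.89 and 2.75 CPM in X-II and 9.54, 8.46, 8.19 and 8.67 CPM in N2. X-V and X-II overlapped. In log2 terms the difference was −1.37 ± 0.39 (SE) in X-V and −1.01 ± 0.38 in X-II against N2 (edgeR adjusted p = 1.00 and 0.433), with the N2 libraries shared by both comparisons. Its neighbour F31D4.5, whose span overlaps that of the trypsin-like protease gene try-4, stood at 1.88, 1.34, 1.95 and 1.93 CPM in X-V, 6.48, 3.86, 2.34 and 2.25 CPM in X-II and 5.89, 3.78, 4.38 and 4.41 CPM in N2, and only X-V was without overlap below N2.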
